A study of Mus musculus with 11 samples.

Results

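The smooth muscle contractile genes are 10 genes named for this comparison: Acta2, Myh11, Tagln, Cnn1, Mylk, Actg2, Lmod1, Smtn, Myocd and Des. All 10 were measured, each by 1 transcript cluster (the array's probes for 1 transcript) paired with exactly 1 gene symbol, out of 30145 genes chosen in the same way. They were compared between the carotid body, the small chemoreceptor at the fork of the carotid artery that senses blood oxygen, the adrenal medulla, the inner, catecholamine-releasing tissue of the adrenal, and the superior cervical ganglion, which holds sympathetic neurons. All samples came from wild-type C57B6 mice of both sexes aged 2 months, and the labels name no treatment. There were 3 carotid body arrays, each from a pool of 10 mice, 4 adrenal medulla arrays and 4 ganglion arrays, each from a pool of 3 mice. A replicate is therefore a pool of dissected tissue and not an animal, and the labels do not say how much of the adjoining artery a carotid body pool held.

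Smooth muscle cells contract when calcium and calmodulin activate myosin light chain kinase, which phosphorylates the light chains of smooth muscle myosin so that the myosin pulls on filaments of smooth muscle actin. Calponin, transgelin, smoothelin and leiomodin bind those actin filaments, and desmin forms intermediate filaments that tie the contractile apparatus together. Many of these genes are switched on by serum response factor with its coactivator myocardin, through a DNA element called the CArG box. In organs such as these, smooth muscle is known chiefly from the walls of arteries and arterioles, and pericytes on smaller vessels can carry some of the same proteins.

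The promoters of Acta2 and Des are shown because they had the greatest and the lowest carotid body difference from adrenal medulla. Each is a window of 300 bases from RefSeq (GRCm38.p6), at chr19:34255324-34255623 on the minus strand for Acta2 and at chr1:75360042-75360341 on the plus strand for Des, reaching from 250 bases before the gene's start to 50 after it. Capitals mark each match to the CArG box (a pair of C, 6 inner bases of A or T, a pair of G, the same pattern on both strands) in which at most 1 inner base is not A or T.
Acta2: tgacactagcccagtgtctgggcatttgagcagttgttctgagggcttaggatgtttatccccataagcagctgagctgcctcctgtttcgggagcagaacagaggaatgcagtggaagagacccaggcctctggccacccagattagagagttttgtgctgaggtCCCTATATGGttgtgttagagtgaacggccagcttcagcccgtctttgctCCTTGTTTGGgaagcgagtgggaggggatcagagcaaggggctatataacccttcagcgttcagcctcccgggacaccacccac
Des: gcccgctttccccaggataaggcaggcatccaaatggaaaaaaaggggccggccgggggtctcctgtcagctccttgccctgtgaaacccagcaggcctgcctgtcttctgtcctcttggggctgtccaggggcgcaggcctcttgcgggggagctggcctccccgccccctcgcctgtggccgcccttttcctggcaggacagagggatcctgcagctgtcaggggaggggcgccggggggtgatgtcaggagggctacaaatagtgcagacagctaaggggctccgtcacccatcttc
The Acta2 window held 2 such matches, which begin 84 and 34 bases before the start that RefSeq gives, and neither is an exact CArG box. Whether transcription begins at that base in these tissues was not tested. Des had none, and neither did Cnn1, Mylk, Lmod1 and Smtn, the other members among the 6 found in the RefSeq promoter table. Of all 32851 windows in that table, 9.98% held at least 1 match of this kind, 0.822% held more than 1, and 1.63% held an exact CArG box. A match describes the letters in the window and not binding. The members not matched in the table are Myh11, Tagln, Actg2 and Myocd.

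Expression is given as the deposited log2 value, and each level is the mean ± SD over n = 3 carotid body or n = 4 arrays of either other tissue. A gene was called different between 2 tissues at a Benjamini-Hochberg adjusted p under 0.05 over all genes in limma's moderated test and a log2 difference of at least 1, which is 2-fold. A background bound was set at the 95th percentile of 540 vomeronasal receptor and hair keratin-associated protein genes taken as silent here, at 5.41 in carotid body, 5.36 in adrenal medulla and 5.45 in ganglion. Carotid body replicate 2 stood apart in that all 12 skeletal muscle markers had their highest carotid body value there, and the adrenal medulla arrays carried 5 of 5 adrenal cortex markers far above both other tissues (Cyp11b1, a corticosterone synthesis enzyme, at 19.61 ± 0.13). In bulk tissue, fewer cells of a type and less RNA per cell cannot be told apart.

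The carotid body carried the highest level of 9 of the 10 contractile genes. Against adrenal medulla 6 were called higher and none lower, where 6.06% of all genes were called higher and 4.95% lower. Against ganglion 8 were called higher and none lower, where 5.61% of all genes were called higher and 8.28% lower. The 6 genes Acta2, Myh11, Tagln, Cnn1, Lmod1 and Myocd were called higher in carotid body than in both other tissues, as were 2.41% of all genes, and these 2 comparisons share the carotid body arrays. The median difference of the 10 genes was 2.08 over adrenal medulla and 2.47 over ganglion, and that of all genes was 0.05 and -0.02. Des was the exception, with its highest level in adrenal medulla. The carotid body arrays lay above every adrenal medulla array for 9 of the 10 genes and above every ganglion array for all 10, while 19.2% and 14.8% of all genes separated in that direction. Des lay below every adrenal medulla array, and 19.1% of all genes separated downwards there and 21.1% against ganglion.

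**Figure D1:**
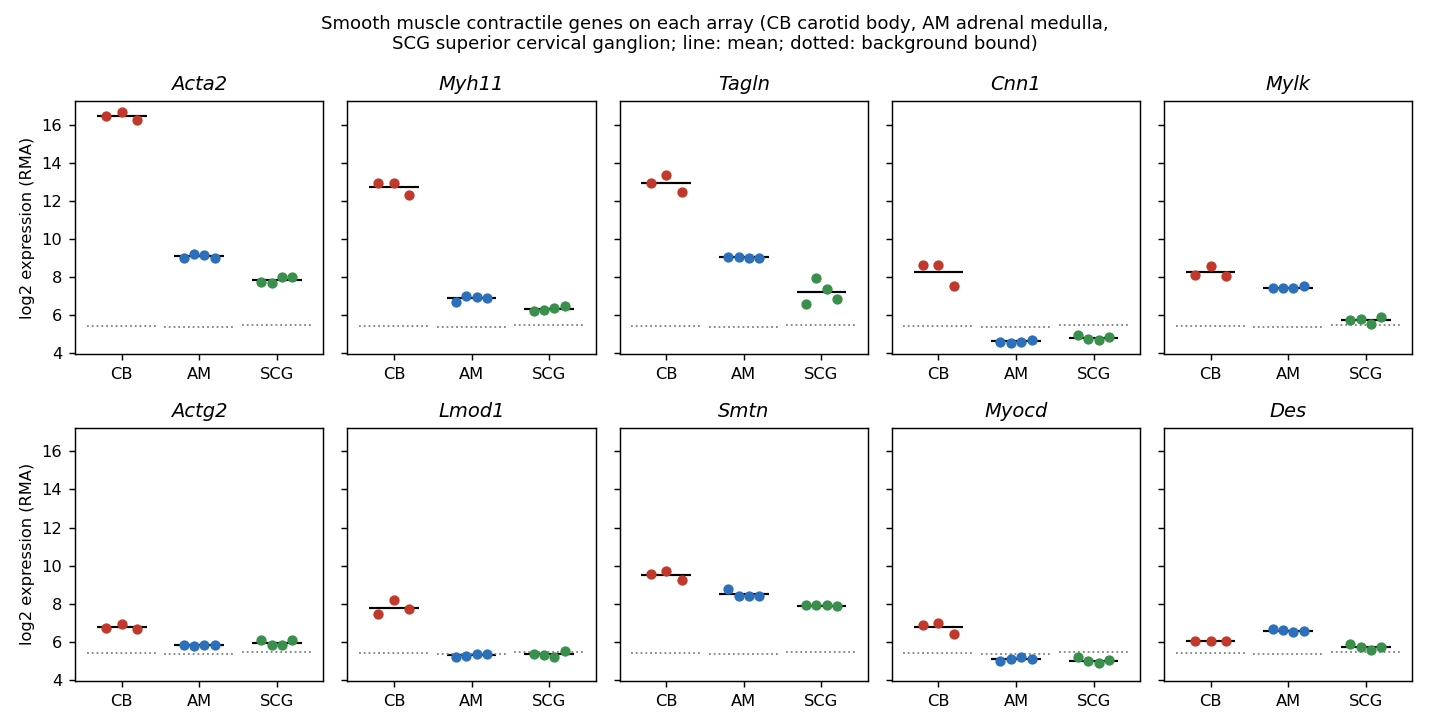
Deposited log2 expression (vertical axis) of the 10 contractile genes on each array of carotid body (CB, 3 points), adrenal medulla (AM, 4 points) and superior cervical ganglion (SCG, 4 points), with the tissue mean as a line and the background bound dotted. Acta2 sits above 16 on the carotid body arrays and below 10 on the others, while Des stays between 5.59 and 6.66 on all 11 arrays.

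Acta2 encodes smooth muscle alpha-actin, the main actin of vascular smooth muscle. Its levels were 16.47, 16.64 and 16.23 on the carotid body arrays, then 8.98, 9.19, 9.15 and 9.004 on the adrenal medulla arrays and 7.73, 7.70, 7.98 and 7.997 on the ganglion arrays. The 3 tissues did not overlap, and the carotid body stood far above the others. Acta2 was 164.9-fold higher in carotid body than in the adrenal medulla (log2 difference 7.37, SE 0.12, limma adjusted p = 1.85e-11) and 386.3-fold higher than in ganglion (8.59, SE 0.12, limma adjusted p = 4.19e-11). Only 3 of the 30145 genes had a greater difference over adrenal medulla and only 2 over ganglion. Adrenal medulla was in turn 2.34-fold above ganglion (9.08 ± 0.10 against 7.85 ± 0.16, limma adjusted p = 5.41e-06).

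Actg2, the gamma-actin typical of visceral smooth muscle, is a near-identical paralogue of Acta2 and differed much less in array signal. It read 6.70, 6.95 and 6.66 on the carotid body arrays, then 5.84, 5.78, 5.83 and 5.81 on the adrenal medulla arrays and 6.10, 5.81, 5.81 and 6.09 on the ganglion arrays. Every carotid body array lay above all others, with mean differences under 2-fold, and the other tissues overlapped. The difference was 0.96 over adrenal medulla (SE 0.10, limma adjusted p = 3.87e-05) and 0.82 over ganglion (SE 0.10, limma adjusted p = 9.35e-05), so neither was called, although the first reached 1.01 without carotid body replicate 3. With the bound at the 99th percentile of the silent genes (6.79, 6.35 and 6.44), the mean of Actg2 was under it in every tissue. Its differences therefore describe the signal near background and not the amount of transcript. How far transcripts of one actin gene hybridise to the probes of another was not tested.

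Myh11 encodes the smooth muscle myosin heavy chain, the motor of the thick filament. It read 12.92, 12.95 and 12.29 on the carotid body arrays, then 6.70, 7.00, 6.94 and 6.90 on the adrenal medulla arrays and 6.19, 6.25, 6.38 and 6.47 on the ganglion arrays. Every carotid body array was above 12, and every other array was at or below 7.00. Myh11 was 57.1-fold higher in carotid body than in the adrenal medulla (5.83, SE 0.15, limma adjusted p = 1.01e-09) and 84.1-fold higher than in ganglion (6.39, SE 0.15, limma adjusted p = 1.62e-09). Adrenal medulla exceeded ganglion by 0.56 (limma adjusted p = 0.0105), under 2-fold.

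Mylk, the kinase that phosphorylates the myosin light chain and that other cell types also use, was shared more evenly by carotid body and adrenal medulla. It read 8.11, 8.56 and 8.05 on the carotid body arrays, then 7.43, 7.43, 7.39 and 7.50 on the adrenal medulla arrays and 5.72, 5.79, 5.53 and 5.89 on the ganglion arrays. The tissues did not overlap, and adrenal medulla lay closer to carotid body than to ganglion. Mylk was 5.70-fold higher in carotid body than in ganglion (2.51, SE 0.13, limma adjusted p = 2.00e-07) and 3.27-fold higher in adrenal medulla than in ganglion (1.71, SE 0.12, limma adjusted p = 6.67e-07). Carotid body exceeded adrenal medulla by 0.80 (SE 0.13, limma adjusted p = 0.000607), under the 2-fold limit.

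Tagln encodes transgelin (SM22-alpha), an actin-binding protein of early and mature smooth muscle. Its levels were 12.92, 13.36 and 12.46 on the carotid body arrays, then 9.05, 9.02, 9.01 and 9.01 on the adrenal medulla arrays and 6.58, 7.96, 7.36 and 6.84 on the ganglion arrays. All 3 tissues were separate, and the ganglion pools spread the most. Tagln was 14.8-fold higher in carotid body than in the adrenal medulla (3.89, SE 0.30, limma adjusted p = 2.99e-06) and 53.0-fold higher than in ganglion (5.73, SE 0.30, limma adjusted p = 2.62e-07). It was also 3.57-fold higher in adrenal medulla than in ganglion (9.02 ± 0.02 against 7.19 ± 0.61, limma adjusted p = 0.000304).

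Cnn1, Lmod1 and Myocd were above the background bound in carotid body and had means below it in both other tissues. Cnn1, calponin 1, which binds actin and damps the myosin motor, read 8.61, 8.60 and 7.51 on the carotid body arrays, against 4.55 to 4.70 in adrenal medulla and 4.67 to 4.96 in ganglion. Carotid body replicate 3 was the low one and still lay above every array of the other tissues. Measured against the bound, Cnn1 was at least 7.39-fold higher in carotid body than in the adrenal medulla (limma adjusted p = 7.45e-07) and at least 6.93-fold higher than in ganglion (limma adjusted p = 1.29e-06). With the bound at the 99th percentile of the silent genes these limits were 3.73 and 3.50.

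Lmod1, leiomodin 1, which nucleates actin filaments in smooth muscle, read 7.48, 8.18 and 7.70 on the carotid body arrays, against 5.20 to 5.36 in adrenal medulla and 5.21 to 5.52 in ganglion. The adrenal medulla and ganglion arrays overlapped around the bound. Lmod1 was at least 5.38-fold higher in carotid body than in the adrenal medulla (limma adjusted p = 4.82e-07) and at least 4.99-fold higher than in ganglion (limma adjusted p = 6.81e-07), or at least 2.72-fold and 2.55-fold with the higher bound.

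Myocd encodes myocardin, the coactivator that turns on the smooth muscle programme with serum response factor. It read 6.87, 7.01 and 6.41 on the carotid body arrays, then 5.02, 5.08, 5.20 and 5.11 on the adrenal medulla arrays and 5.19, 4.97, 4.87 and 5.04 on the ganglion arrays. The carotid body arrays were apart from the rest, which overlapped below the bound. Myocd was at least 2.65-fold higher in carotid body than in the adrenal medulla (fitted difference 1.66, SE 0.13, limma adjusted p = 4.42e-06) and at least 2.48-fold higher than in ganglion (1.74, SE 0.13, limma adjusted p = 3.53e-06). Its carotid body mean of 6.76 lay just under the higher bound of 6.79, so that no fold can be given there.

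Smtn encodes smoothelin, an actin-binding protein of contractile smooth muscle. It read 9.56, 9.70 and 9.23 on the carotid body arrays, then 8.80, 8.39, 8.42 and 8.42 on the adrenal medulla arrays and 7.92, 7.91, 7.92 and 7.87 on the ganglion arrays. The tissues were separate but close together. Smtn was 3.02-fold higher in carotid body than in ganglion (1.59, SE 0.12, limma adjusted p = 4.29e-06). Its difference over adrenal medulla, 0.99 (SE 0.12, limma adjusted p = 0.000138), was just short of the call and passed it at 1.08 without adrenal medulla replicate 1, at 1.12 without carotid body replicate 3 and at 1.07 with quantile normalization repeated.

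Des encodes desmin, the muscle intermediate filament protein, which skeletal and cardiac muscle share with smooth muscle. Its levels were 6.04, 6.06 and 6.06 on the carotid body arrays, then 6.66, 6.61, 6.53 and 6.54 on the adrenal medulla arrays and 5.90, 5.73, 5.59 and 5.72 on the ganglion arrays. The order was adrenal medulla, carotid body, ganglion, with no overlap and with every step under 2-fold. Carotid body lay below adrenal medulla by 0.53 (95% confidence interval of the difference -0.71 to -0.36, limma adjusted p = 0.000455) and above ganglion by 0.32 (0.14 to 0.50, limma adjusted p = 0.00900). Both intervals exclude a 2-fold difference in array signal. With the bound at the 99th percentile of the silent genes, Des was under it in carotid body (6.79) and ganglion (6.44). In adrenal medulla it was above that bound (6.35). The intervals therefore describe the signal near background and not the amount of transcript. Across all 10 genes the adjusted p alone, without the 2-fold limit, passed in both carotid body comparisons, with Des as the 1 gene lower in carotid body, against adrenal medulla. By that wider rule 8836 of all 30145 genes passed against adrenal medulla and 10272 against ganglion.

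**Figure D2:**
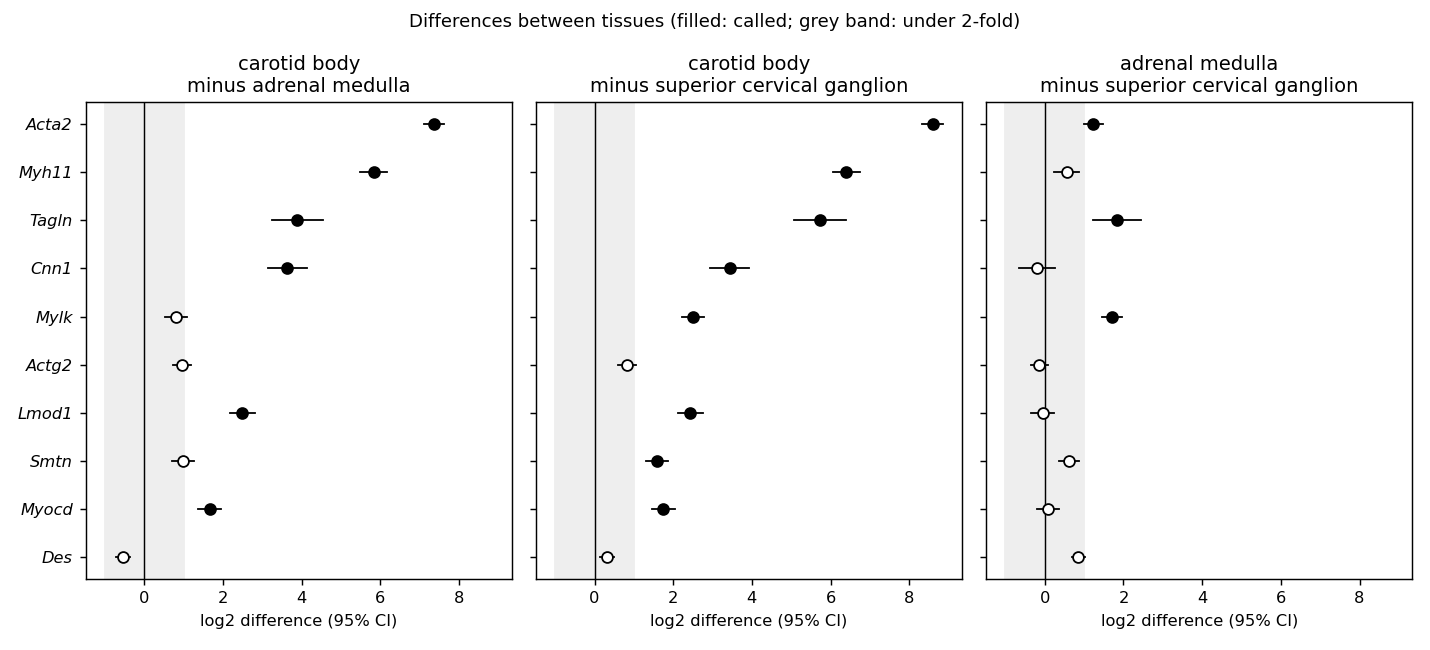
Log2 difference (horizontal axis) of each contractile gene in the 3 comparisons, with its 95% confidence interval from limma as a line. Filled points were called and the grey band spans differences under 2-fold. The carotid body differences run from -0.53 for Des to 8.59 for Acta2, while the adrenal medulla minus ganglion differences of the 7 genes above background in both tissues stay between -0.14 and 1.84. Cnn1, Lmod1 and Myocd are drawn at their fitted differences, also where 1 or both tissue means are under the background bound.

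Between the adrenal medulla and the ganglion fewer of the contractile genes were called. Acta2, Tagln and Mylk were called higher in adrenal medulla and none was called lower, where 5.72% of all genes were called higher and 7.50% lower. The median difference of the 10 genes was 0.58, and that of all genes was -0.08. Cnn1, Lmod1 and Myocd were below the bound in both tissues, so no fold is given for them. The adrenal medulla arrays lay above every ganglion array for 6 of the 10 genes and below every one for none, where 16.7% and 20.2% of all genes separated in these directions.

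Within the carotid body the same pool held the highest value of most of the genes, and another the lowest. Replicate 2 alone was the highest of the 3 arrays for 8 of the 10 genes, against 36.7% of all genes, and replicate 3 alone the lowest for 8, against 20.6% of all genes. Des read the same on replicates 2 and 3 and is counted for neither. The summed level of the 10 genes, as log2 of the sum of the linear values, was 16.73, 16.91 and 16.44 on replicates 1 to 3. Most of that sum was Acta2. Over the same arrays 6 markers of sympathetic neurons summed to 18.28, 16.39 and 17.28, and the array with the highest contractile sum had the lowest neuronal sum; their part in the contractile values was not tested. In the other tissues no array held more than 4 of the highest values. Ganglion replicates 1 and 4 and adrenal medulla replicate 1 held 4 each, and were highest for 42%, 21.6% and 26.7% of all genes. Ganglion replicate 3 held 6 of the 10 lowest values, and was lowest for 33.8% of all genes. Without carotid body replicate 2 the counts called higher stayed at 6 and 8, with Acta2 at 7.27 and 8.50 and Myh11 at 5.72 and 6.28 over adrenal medulla and ganglion.

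Wider contractile genes were taken from lists of 75 genes in 5 roles beyond the 10 described above, of which 64 were measured. Against adrenal medulla 26 were called higher in carotid body and 7 lower, where 6.06% and 4.95% of all genes were. Their median difference was 0.76, and that of all genes 0.05. Against ganglion 29 were called higher and 5 lower, where 5.61% and 8.28% of all genes were. Their median difference was 0.75, and that of all genes -0.02. Between adrenal medulla and ganglion 19 were higher and 8 lower in adrenal medulla, where 5.72% and 7.50% of all genes were. The same shares of all genes apply beside the counts of every list below.

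Of 9 actin filament genes 3 were called higher in carotid body than in the adrenal medulla and 6 than in ganglion, and none lower. Tpm2, a tropomyosin that lies along the actin filament, was higher by 1.91 and 2.66, and Synpo2, which bundles actin, by 1.68 and 2.33. Svil, supervillin, which links actin to the membrane, was higher than in ganglion in both carotid body (by 1.90) and adrenal medulla (by 1.30). Actn1, alpha-actinin 1, which crosslinks actin, was higher in carotid body by 1.35 over adrenal medulla, Cald1, caldesmon, by 1.48 over ganglion, and Actn4 was higher in adrenal medulla than ganglion by 1.43.

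Of 8 genes of myosin and its phosphorylation 3 were higher in carotid body than in the adrenal medulla and 4 than in ganglion. Myl9, the light chain that Mylk phosphorylates, read 13.29, 13.51 and 12.59 on the carotid body arrays, 8.95 to 8.98 in adrenal medulla and 7.29 to 8.04 in ganglion. It was 18.0-fold higher in carotid body than in the adrenal medulla (limma adjusted p = 2.68e-07) and 49.7-fold higher than in ganglion (limma adjusted p = 4.03e-08). Ppp1r14a, an inhibitor of myosin phosphatase also known as CPI-17, was 2.97-fold and at least 5.02-fold higher, and Ppp1r12a, the targeting subunit of that phosphatase, was higher by 1.11 and 1.06. Rock1, a kinase that also inhibits the phosphatase, was 5.95-fold higher in carotid body and 4.35-fold higher in adrenal medulla than in ganglion, and was not called between carotid body and adrenal medulla (0.45, limma adjusted p = 0.165).

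Dense plaques and dense bodies anchor the filaments, and their genes were listed with those of the intermediate filaments. Of 15 measured, 10 were higher in carotid body than in the adrenal medulla, and 8 were higher and 1 lower than in ganglion. Itga8, the integrin alpha8 chain, read 12.14, 13.12 and 11.51 in carotid body, 9.42 to 9.57 in adrenal medulla and 5.53 to 5.88 in ganglion, a difference of 2.80 and 6.59. Cav1, caveolin 1, was higher by 5.36 and 3.34, Flna, filamin A, by 3.03 and 4.17, and Pdlim3, a partner of alpha-actinin, by 3.30 over adrenal medulla. The ganglion mean of Pdlim3 was under the bound, and carotid body was at least 10.8-fold higher there. Vim, vimentin, the intermediate filament protein of mesenchymal cells, was higher by 5.17 and 1.48, whereas Des differed by -0.53 and 0.32. Synm, synemin, a partner of desmin, was higher than in the adrenal medulla by 1.68 and lower than in ganglion by 1.73 (limma adjusted p = 0.000262). Csrp1, a LIM protein that binds alpha-actinin, was higher than in the adrenal medulla by 2.10 and differed by -2.58 between adrenal medulla and ganglion.

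Of 16 genes of transcriptional control 6 were called higher in carotid body and 3 lower than in the adrenal medulla, and 8 higher and none lower than in ganglion. Jag1, a Notch ligand, was 10.4-fold higher than in either tissue, and the Notch receptor Notch3, known from arterial smooth muscle and also a pericyte marker here, was 3.23-fold and 5.59-fold higher. Csrp2, a LIM protein of smooth muscle, was 4.60-fold and 9.36-fold higher, and Klf4, a factor known to repress contractile genes, 4.01-fold and 4.42-fold. Srf, the partner of myocardin, had means of 7.68 ± 0.19 in carotid body, 7.48 ± 0.36 in adrenal medulla and 6.62 ± 0.07 in ganglion, called against ganglion (1.06, limma adjusted p = 0.000592) and not against adrenal medulla (0.20, limma adjusted p = 0.445). Mrtfb, another coactivator of Srf, was highest in adrenal medulla, where it was 3.66-fold above ganglion, and carotid body lay 1.07 below it. Mrtfa was called in none of the comparisons. Tcf21, a factor of mesenchymal precursors, had a carotid body mean under the bound and was at least 2.91-fold lower there than in the adrenal medulla, a limit of 1.12 with the bound at the 99th percentile. Fhl2, a LIM cofactor, differed by -1.07 from adrenal medulla, and Tead1, a partner of the YAP coactivators, was higher by 1.08 over ganglion.

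Receptors, channels and calcium-handling genes went both ways. Of 16 measured, 4 were called higher in carotid body and 4 lower than in the adrenal medulla, and 3 higher and 4 lower than in ganglion, with median differences of -0.02 and 0.04. Pln, phospholamban, which restrains the calcium pump of the sarcoplasmic reticulum, was at least 7.52-fold and 7.06-fold higher in carotid body. Kcnmb1, the beta subunit of the calcium-activated potassium channel in smooth muscle, was 4.38-fold and 4.58-fold higher, while Kcnma1, the pore subunit that neurons and chromaffin cells also use, was lower than in the adrenal medulla by 2.75. Mcam, an adhesion molecule of vessels, was 7.65-fold higher than in the adrenal medulla and lower than in ganglion by 2.52. Agtr1a, an angiotensin receptor, was lower than in the adrenal medulla by 2.71, and Ednrb, an endothelin receptor, was lower than in ganglion by 2.91. Cacna1c, the pore of the L-type calcium channel, differed by -1.36 from adrenal medulla and by 1.09 from ganglion, and Ptgir, the prostacyclin receptor, by -1.20 from ganglion.

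**Figure D3:**
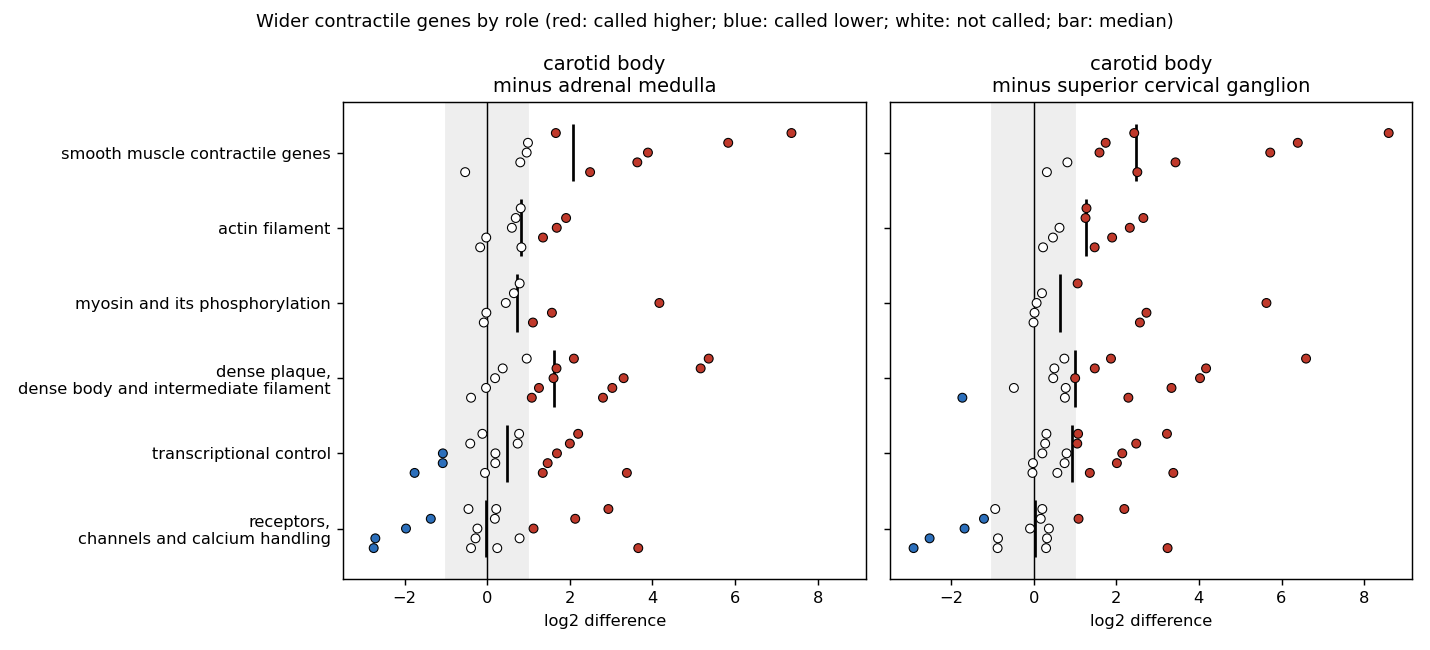
Log2 differences (horizontal axis) of the 10 contractile genes and of 5 wider role lists, 1 point per gene, for carotid body minus adrenal medulla and carotid body minus superior cervical ganglion. Red points were called higher in carotid body, blue points lower, white points not called, and the bar is the list's median, which is 2.08 and 2.47 for the contractile genes and -0.02 and 0.04 for receptors, channels and calcium handling.

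Paralogues of the contractile genes, which serve other muscle types or all cells, were set beside them from a list of 23. Of 20 measured, 5 were called higher in carotid body and 1 lower than in the adrenal medulla, and 3 higher and 2 lower than in ganglion, with median differences of 0.25 and 0.14. Of all genes 6.06% were called higher and 4.95% lower than in the adrenal medulla, and 5.61% and 8.28% than in ganglion. Actb, the cytoplasmic beta-actin, had means of 17.18 ± 0.15 in carotid body, 17.18 ± 0.06 in adrenal medulla and 16.96 ± 0.13 in ganglion, with differences of 0.00 and 0.22. Acta1, skeletal muscle actin, differed by 1.00 and 0.80 and was not called (limma adjusted p = 0.0608 and 0.121). Myh10 and Myh14, nonmuscle myosin heavy chains, differed by 0.66 and 0.29 over adrenal medulla and by -0.53 and -0.77 over ganglion. Tagln2 and Tagln3, paralogues of Tagln of which Tagln3 is neuronal, were higher in carotid body than in the adrenal medulla by 1.05 and 1.47, and Tagln3 was lower than in ganglion by 2.22 (Tagln2 differed there by -0.91).

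Cnn2, a calponin of nonmuscle cells, was higher than in ganglion by 1.66 and differed from adrenal medulla by 0.87, and Cnn3 differed by -0.14 from ganglion and by 0.80 from adrenal medulla. Mylk2 and Mylk3, the skeletal and cardiac kinases, and Lmod2, Lmod3 and Smtnl1 had means under the bound in every tissue, and Smtnl2 differed by 0.05 from adrenal medulla and by -0.005 from ganglion. Mylk4 was called higher in carotid body by 1.40 and 1.29, at least 1.61-fold and 1.51-fold against the bound. It read 5.68, 6.66 and 5.78 on carotid body replicates 1 to 3, highest on the array with the raised skeletal muscle markers. What that array adds to the Mylk4 calls was not tested. All these values lay under 6.79, the carotid body bound at the 99th percentile, so that no fold can be given there. Among intermediate filament genes Prph, peripherin of peripheral neurons, was higher than in the adrenal medulla by 4.96 and lower than in ganglion by 4.26, and Gfap was not called. The paralogues and the contractile genes were not tested against each other.

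Markers of other cells moved with the contractile genes in part, and their part in the result was not tested. Of 8 pericyte markers 4 were called higher in carotid body than in the adrenal medulla and 5 than in ganglion, and none lower. Their summed level was 18.90 to 19.30 in carotid body, 14.16 to 14.33 in adrenal medulla and 11.71 to 12.46 in ganglion, most of it Rgs5 (19.04 ± 0.20 in carotid body), which is also on the list of glomus cell markers, the oxygen-sensing cells of the carotid body. Without Rgs5, a sum taken after the values were seen, the other 7 pericyte markers gave 12.99 to 13.69 in carotid body, 12.73 to 13.01 in adrenal medulla and 9.56 to 9.89 in ganglion, and carotid body and adrenal medulla overlapped. Pdgfrb, a receptor found on pericytes and also on smooth muscle cells, had means of 11.72 ± 0.37 in carotid body and 12.07 ± 0.17 in adrenal medulla (limma adjusted p = 0.243). Other pericyte markers differed between these tissues. Cspg4 read 7.866 to 7.945 in carotid body and 5.303 to 5.545 in adrenal medulla. Notch3 read 8.20 to 9.13 and 6.88 to 6.89, and Abcc9 12.13 to 12.89 and 11.30 to 11.42. Kcnj8 overlapped, at 6.79 to 7.45 in carotid body and 7.12 to 7.94 in adrenal medulla. Against ganglion Pdgfrb was 10.1-fold higher. Vtn, another pericyte marker, read 6.03 to 6.27 in carotid body, 5.452 to 5.935 in adrenal medulla and 6.182 to 6.448 in ganglion. Its carotid body and ganglion arrays overlapped. Higd1b, the last of these markers, was under the bound in all tissues.

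All 7 fibroblast markers were called higher in carotid body in both comparisons, with summed levels of 18.23 to 18.39 in carotid body, 13.25 to 13.47 in adrenal medulla and 16.13 to 16.29 in ganglion. Of 6 matrix genes of the arterial wall 4 were higher than in the adrenal medulla and all 6 than in ganglion, at 14.12 to 14.48 in carotid body, 12.34 to 12.50 in adrenal medulla and 11.66 to 12.22 in ganglion. Eln, elastin, the elastic protein of large arteries, was 4.81-fold and 14.7-fold higher. Endothelial markers summed to 13.88 to 14.21 in carotid body, 13.90 to 14.45 in adrenal medulla and 9.94 to 10.30 in ganglion, so that carotid body and adrenal medulla overlapped there, with 4 of 6 called higher and 2 lower. The contractile genes summed to 16.44 to 16.91 in carotid body, 10.91 to 10.97 in adrenal medulla and 9.83 to 10.02 in ganglion. In carotid body most of that sum was Acta2, which alone read 16.23 to 16.64. The mean log2 level of the 10 genes, in which each gene counts equally, differed less. It was 9.26 to 9.80 in carotid body, 6.83 to 6.84 in adrenal medulla and 6.13 to 6.23 in ganglion.

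None of 12 skeletal muscle markers and none of 6 cardiac markers was called in any comparison by limma. The skeletal markers summed to 8.95, 10.59 and 9.02 on carotid body replicates 1 to 3, against 8.72 to 8.86 in adrenal medulla and 8.75 to 9.06 in ganglion. Replicate 2 held the excess, with Acta1 at 8.32 there and at 6.46 and 6.51 on replicates 1 and 3, and Myh4, a fast myosin heavy chain picked after its values were seen, at 7.89 there and at 4.81 and 4.91. Des, which skeletal muscle also expresses, read 6.06 on that array. Cardiac markers summed to 8.22 to 8.73 in carotid body, 8.24 to 8.30 in adrenal medulla and 8.12 to 8.46 in ganglion.

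Markers of nerve and endocrine cells also differed between the tissues. All 4 glia and Schwann cell markers were called higher in carotid body against adrenal medulla, with sums of 15.49 to 16.44 in carotid body, 11.17 to 11.82 in adrenal medulla and 15.61 to 16.70 in ganglion, and against ganglion 1 was called lower and none higher. Of the 6 sympathetic neuron markers 5 were called higher against adrenal medulla and all 6 lower against ganglion, with sums of 16.39 to 18.28 in carotid body, 16.74 to 17.39 in adrenal medulla and 19.79 to 19.90 in ganglion. Of 5 glomus cell markers 3 were called higher and 2 lower against adrenal medulla, and 4 higher and 1 lower against ganglion, with sums of 19.55 to 20.13 in carotid body, 19.58 to 19.74 in adrenal medulla and 19.11 to 19.31 in ganglion. All 5 chromaffin cell markers were called lower against adrenal medulla, and 2 were higher and 2 lower against ganglion.

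**Figure D4:**
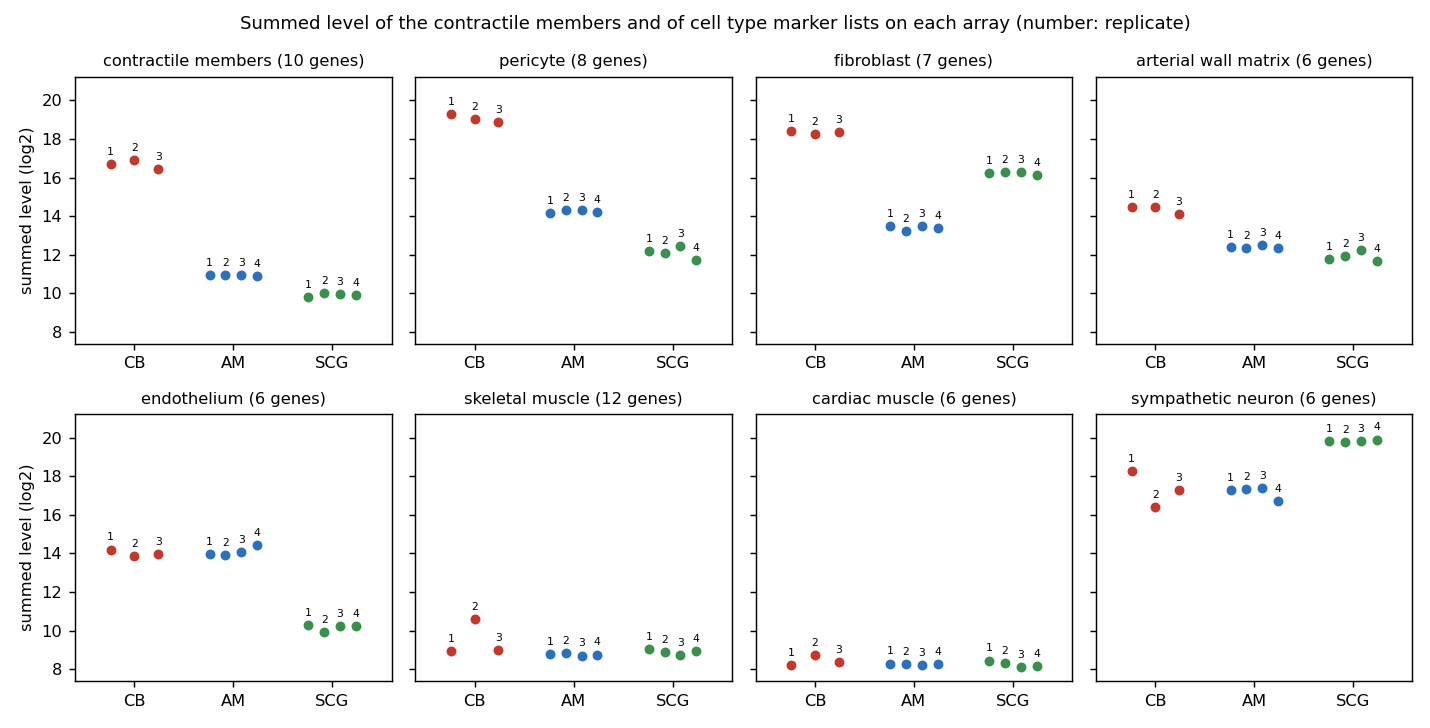
Summed level (vertical axis, log2 of the sum of linear values) of the 10 contractile genes and of 7 marker lists on each array of carotid body (CB), adrenal medulla (AM) and superior cervical ganglion (SCG), each point numbered by its replicate. The contractile genes lie at 16.44 to 16.91 in carotid body, where most of the sum is Acta2, and at or below 10.97 elsewhere. Only carotid body replicate 2 has a raised skeletal muscle level, 10.59.

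The genes whose profile was most like the mean of the contractile genes were sought among 1693 protein-coding genes with tissue means at least 2 apart, by Pearson's r over the 11 arrays. Since the arrays fall into 3 tissues, this r mostly reflects the tissue means and is a description. The closest were Anxa1 (annexin A1, r = 0.995), Ltbp1 (a binding protein of latent TGF-beta, 0.995), Myl9 (0.994), Prrx1 (a mesenchymal transcription factor, 0.993), Gas6 (a ligand of TAM receptors, 0.993), Lepr (the leptin receptor, 0.992), Pdlim3 (0.992) and Rgs5 (0.991). Lepr had means of 10.50 ± 0.15 in carotid body, 7.31 ± 0.15 in adrenal medulla and 6.81 ± 0.22 in ganglion, and Prrx1 had means of 8.74 ± 0.15 in carotid body, 6.25 ± 0.08 in adrenal medulla and 5.66 ± 0.19 in ganglion. Among the contractile genes themselves r to that mean was 0.996 for Acta2 and 0.992 for Myh11, 0.836 for Mylk and 0.071 for Des. Each of these genes is part of the mean, and genes whose tissue means span more weigh more in it. That span was 8.59 for Acta2, 6.39 for Myh11, 2.51 for Mylk and 0.85 for Des, so high r for the first genes is partly built in.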

How the data were processed

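Total RNA from 11 pools was amplified, labelled and hybridised to Affymetrix mouse transcriptome 1.0 arrays, per the labels. The authors' deposited values are log2 signals made by RMA (background correction, normalization between arrays and summary of probes) with the Expression Console software of Affymetrix, as named per the submitters' processing notes. Versions and genome build: not given in the sources used here. RMA values are on a log2 scale by construction; array maxima of 19.65 to 19.93 exceed a 16-bit scan, so folds are on the deposited scale, and no raw scans were used.

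Of 65956 transcript clusters, 30604 pair with 1 gene symbol. The brightest row of each gene was kept, leaving 30145 genes with no filter on low values, and symbols were updated through RefSeq (GRCm38.p6). Tissue was the only factor in 1 limma fit over 11 arrays (limma 3.58.1, R 4.3.3), tested on simulated data. Where a tissue mean lay under the bound, its arrays were raised to the bound, which turns the fold into a lower limit ("at least"). Some arrays of a tissue share exactly equal deposited values for 13.1% to 26.1% of genes, among them Des in carotid body and Tagln and Smtn in adrenal medulla, so those SDs rest partly on repeated values.

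Every contractile gene is named, as are the paralogues and the 8 most similar genes. Of each wider list the 4 called genes with the greatest difference per comparison are named, and up to 3 markers per list. Srf, Mrtfa, Synm, Higd1b, Myh4, Cspg4, Kcnj8 and Vtn were added after values were seen. Members and lists were chosen with earlier results of these data known. The labels call the pools biological replicates and name no batch, and p-values measure the spread between pools. Alternatives covered the scaling, filters, features tested, call rule, fit and each array left out.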

Additional observations from a re-analysis of the deposited data

Results flagged for a closer look

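Of 20 sets of 4 arrays (10 genes in adrenal medulla and in ganglion), 1 held an array far from the others. Chance gives about 1 in 20 where values do not repeat. The flagged set, Smtn in adrenal medulla, holds repeated values, so that rate is only a guide. Smtn read 8.80 on adrenal medulla replicate 1, against 8.39, 8.42 and 8.42 on the other adrenal medulla arrays. Without that array its carotid body minus adrenal medulla difference was 1.08 instead of 0.99 and passed the 2-fold limit. Srf, looked at after this was seen, read 8.02 on the same array and 7.29 to 7.32 on the others.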

How the results depend on the processing

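No difference of a contractile gene that was called changed sign under any alternative run. The counts of contractile genes called were 6 over adrenal medulla, 8 over ganglion and 3 for adrenal medulla over ganglion; leaving out each array in turn gave 6 to 8, 8 to 8 and 3 to 3, and the replicate block gave 6, 8 and 3 (wider genes 33, 33 and 27) and changed no call of a contractile gene. The main fit did not pair the pools by number. Same-numbered pools deviated with r of -0.17 to 0.25. Pools of different numbers were not compared in this way, so these values cannot decide whether the numbers pair the pools. With the adjusted p alone the contractile counts were 10, 10 and 6 (wider genes 47 for adrenal medulla against ganglion, and all genes 8836, 10272 and 10362). Limma's treat against 2-fold gave 6, 8 and 1, with Acta2 (adjusted p = 0.352) and Tagln (0.0799) no longer called between adrenal medulla and ganglion; the wider counts were 20, 21 and 16 against 33, 34 and 27, and those of all genes 1341, 1800 and 2081, because that test asks for more than 2-fold. Testing all transcript clusters called 5157 features between carotid body and adrenal medulla against 3320 genes. Median centring moved the median of all genes between carotid body and adrenal medulla to -0.10 (0.05 as deposited) and the share of calls that were higher to 44.5% (55.1%). Repeated quantile normalization moved that share to 51.2% (40.4%) against ganglion and to 53.9% (43.3%) for adrenal medulla against ganglion, with the last median at 0.04 (-0.08). Under both scalings Des stayed below adrenal medulla, in a range of -0.68 to -0.51 over all alternatives. Background signal limits Cnn1, Lmod1 and Myocd in adrenal medulla and ganglion to bounds, at log2 differences of 1.90 and 1.81 for Cnn1 and 1.44 and 1.35 for Lmod1 with the 99th percentile (2.89, 2.79, 2.43 and 2.32 with the 95th).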
